A study of Mus musculus with 2 samples.

Results

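The genes described here are 10 of the 27514 genes counted in both libraries, and they make up the core of Notch signalling: the receptors Notch1, Notch2 and Notch3, the ligands Jag1, Dll1 and Dll4, the target genes Hes1, Hey1 and Nrarp, and Atoh1, a gene that Notch signalling holds down in the gut. They were chosen by name, and their levels were read separately in epithelial and in vascular and stromal cells. The cells came from intestinal adenoma organoids of C57BL/6 mice aged 17 weeks with the genotype ApcMin/+, which carries a germline truncating mutation of the Wnt pathway gene Apc. 1 culture was the control and 1 received RSPO1-Fc, an R-spondin fusion protein that enhances Wnt signalling, at 10 µg/ml in the treatment protocol (a sample label gives mg/ml for the same dose). Each culture is 1 droplet library of UMIs (unique molecular identifiers, which count transcripts), so there is no replicate of either and no p-value. Whether the 2 cultures share a mouse is not stated in the sources used here, and the Xist levels below bear on it.

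In Notch signalling a ligand on 1 cell binds a receptor on its neighbour, the receptor is cut by the protease Adam10 and by gamma-secretase, and the freed intracellular part joins Rbpj in the nucleus and switches on Hes and Hey repressors and the feedback inhibitor Nrarp. In intestinal crypts Hes1 represses Atoh1, the transcription factor that starts secretory differentiation, and secretory cells present Dll1 and Dll4. In blood vessels Dll4 and Notch1 act between endothelial cells, and Notch3 and Jag1 are known from the mural cells, or pericytes, that wrap them.

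Epithelial cells were barcodes past the UMI limit of their library, whose shallowest cells had 9812 (control) and 5967 UMIs (RSPO1-Fc), with at least 5 UMIs of Epcam, an epithelial adhesion gene. This gave 1881 control and 2751 RSPO1-Fc cells, with medians of 27696 and 23509 UMIs. Cells with fewer Epcam UMIs were placed in a class where at least 3 of its 8 markers had 2 or more UMIs, more than for any other class. The control held 79 endothelial-like cells (median 17462 UMIs), 36 pericyte-like cells (12863), 69 fibroblast-like cells (14159) and 176 macrophage-like cells (14740.5). In RSPO1-Fc 0 of 2767 cells fell into any of these classes (3 cells would be 0.108%), so the vascular and stromal values below come from the control alone. No cell barcode past the limit was shared by the libraries.

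The classes were gated on their markers, so high sums of these markers follow from the gate and do not test the class names. Overlaps between the classes touch the results. Endothelial markers (Pecam1, Cdh5 and 6 more) summed to 6469 CPM (UMIs per 1e+06 UMIs of the same cells) in endothelial-like cells and to 59.1 CPM in control epithelium, and 32.4 CPM remained in RSPO1-Fc epithelium, where 7 of the 8 had a UMI. Pericyte markers (Rgs5, Cspg4 and 6 more) summed to 19788 CPM in pericyte-like cells, which also carried 12078 CPM of fibroblast markers. 35 of the 36 pericyte-like cells had at least 3 markers of another class, mostly fibroblast markers by sum. Fibroblast markers summed to 21520 CPM in fibroblast-like cells. Genes of lymphatic endothelium (Prox1, Lyve1 and Flt4) summed to 176 CPM in endothelial-like cells, with 88.9 CPM of Lyve1 and 70.9 CPM of Flt4. The endothelial-like class was not split into blood and lymphatic endothelium. Of the 1881 control epithelial cells, 59 carried at least 3 markers of another class, against 0 of 2751 in RSPO1-Fc. These 59 are called mixed cells below, and values that rest on them are given with and without them.

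The libraries also differ in ways that cannot be told apart from RSPO1-Fc. In epithelium Xist, which is transcribed from the inactive X chromosome of female cells, had 1507 CPM in the control and 0.0427 CPM in RSPO1-Fc, Hoxb13, a gene of the hindmost gut, had 104.6 and 0 CPM, and Gata4, a gene of the small intestine, had 0.0149 and 44.0 CPM. The control matrix also lists more barcodes and names a later software version than the labels give.

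The promoters of 4 members are shown because their genes are highest in endothelial cells (Dll4, Nrarp), pericytes (Notch3) and secretory epithelium (Atoh1) in the values that follow. Dll1, the member highest in fibroblasts, has more than 1 start site in the table and is not shown. Each run is the 250 bases before the start site in the RefSeq table of GRCm38.p6, read 5′ to 3′ on the gene's strand. Capitals mark matches to 3 searched motifs on either strand: TGGGAA, the core bound by Rbpj, CACGTG, the E-box bound by Hey repressors, and CTTTGA, the core bound by the TCF factors of Wnt signalling. These letters occur in 21.6%, 6.02% and 13.8% of the 32851 promoters of that length. The table held 8 of the 10 members, and Hes1 and Hey1 were not among them.
Dll4, on the plus strand at chr2:119325534-119325783: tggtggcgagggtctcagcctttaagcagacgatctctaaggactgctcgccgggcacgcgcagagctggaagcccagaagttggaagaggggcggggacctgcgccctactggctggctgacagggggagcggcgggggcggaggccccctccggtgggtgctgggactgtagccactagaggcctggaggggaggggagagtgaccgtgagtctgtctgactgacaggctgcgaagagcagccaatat
Nrarp, on the plus strand at chr2:25180508-25180757: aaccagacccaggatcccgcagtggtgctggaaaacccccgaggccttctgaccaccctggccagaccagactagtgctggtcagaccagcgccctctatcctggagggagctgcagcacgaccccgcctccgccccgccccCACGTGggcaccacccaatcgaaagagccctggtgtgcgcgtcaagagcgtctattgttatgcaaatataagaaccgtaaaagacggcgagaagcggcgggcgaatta
Notch3, on the minus strand at chr17:32166891-32167140: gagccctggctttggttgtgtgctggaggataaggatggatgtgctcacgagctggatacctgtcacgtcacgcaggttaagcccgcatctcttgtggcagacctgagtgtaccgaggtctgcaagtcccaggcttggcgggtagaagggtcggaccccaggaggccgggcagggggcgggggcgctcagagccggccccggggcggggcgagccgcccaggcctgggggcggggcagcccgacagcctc
Atoh1, on the plus strand at chr6:64728875-64729124: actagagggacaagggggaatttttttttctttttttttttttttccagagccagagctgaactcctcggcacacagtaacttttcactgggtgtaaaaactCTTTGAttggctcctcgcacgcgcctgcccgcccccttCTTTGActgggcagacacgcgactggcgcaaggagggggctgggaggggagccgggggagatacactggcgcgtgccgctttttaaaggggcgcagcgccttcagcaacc
Nrarp holds CACGTG 108 bases before its start, and Atoh1 holds CTTTGA at 148 and at 110 bases. TGGGAA was in none of the 8 members' windows. All 4 promoters printed are rich in G and C, with 65.6% in Dll4, 61.2% in Nrarp, 68.8% in Notch3 and 55.6% in Atoh1, against a median of 52.4% over all promoters. They hold 14, 18, 17 and 14 CpG pairs, against a median of 6. A match describes letters only, and no binding was measured.

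The receptors were found in different cells. Notch1 (chromosome 2, 26457903 to 26516663, minus strand in GENCODE M21) was highest in endothelial-like cells, with 359 UMIs or 216 CPM (95% Poisson interval 194 to 239). Pericyte-like cells had 57.0 CPM (37.9 to 82.4), control epithelium 46.9 (45.3 to 48.6), macrophage-like cells 38.9 (31.9 to 46.8), fibroblast-like cells 24.4 (16.0 to 35.8) and RSPO1-Fc epithelium 12.5 (11.7 to 13.4). Endothelial-like cells and RSPO1-Fc epithelium stood clear of their neighbours in this order, while each of the 4 between overlapped the next. Such intervals cover counting error only. A CPM of 3′ counts compares a gene between cells, not 1 gene with another.

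Notch3 (chromosome 17, 32120820 to 32166852, minus strand) was a pericyte gene in these cells. Pericyte-like cells had 271 UMIs or 552 CPM (488 to 622), and 33 of 36 cells had at least 1 UMI. Fibroblast-like cells had 5.63 CPM (2.07 to 12.3), control epithelium 2.23 (1.88 to 2.62) and RSPO1-Fc epithelium 1.49 (1.22 to 1.81). No UMI was found in the 79 endothelial-like or the 176 macrophage-like cells, where 3 UMIs would be 1.80 and 1.06 CPM. The low epithelial level of the control was gathered in few cells: 56 of its 149 UMIs (37.6%) lay in the 59 mixed cells, and without them the level was 1.45 CPM (1.17 to 1.77).

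Notch2 (chromosome 3, 98013527 to 98150361, plus strand) was found in all 6 groups and was lowest in endothelial-like cells, where 8 UMIs were counted. Macrophage-like cells had 30.4 CPM (24.3 to 37.5), RSPO1-Fc epithelium 21.2 (20.1 to 22.3), fibroblast-like cells 18.8 (11.5 to 29.0), pericyte-like cells 12.2 (4.48 to 26.6), control epithelium 9.03 (8.32 to 9.78) and endothelial-like cells 4.81 (2.07 to 9.47). Only macrophage-like cells and RSPO1-Fc epithelium stood clear of each other among neighbours in this order. Macrophage-like cells were 3.37-fold above control epithelium (2.65 to 4.22).

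**Figure D1:**
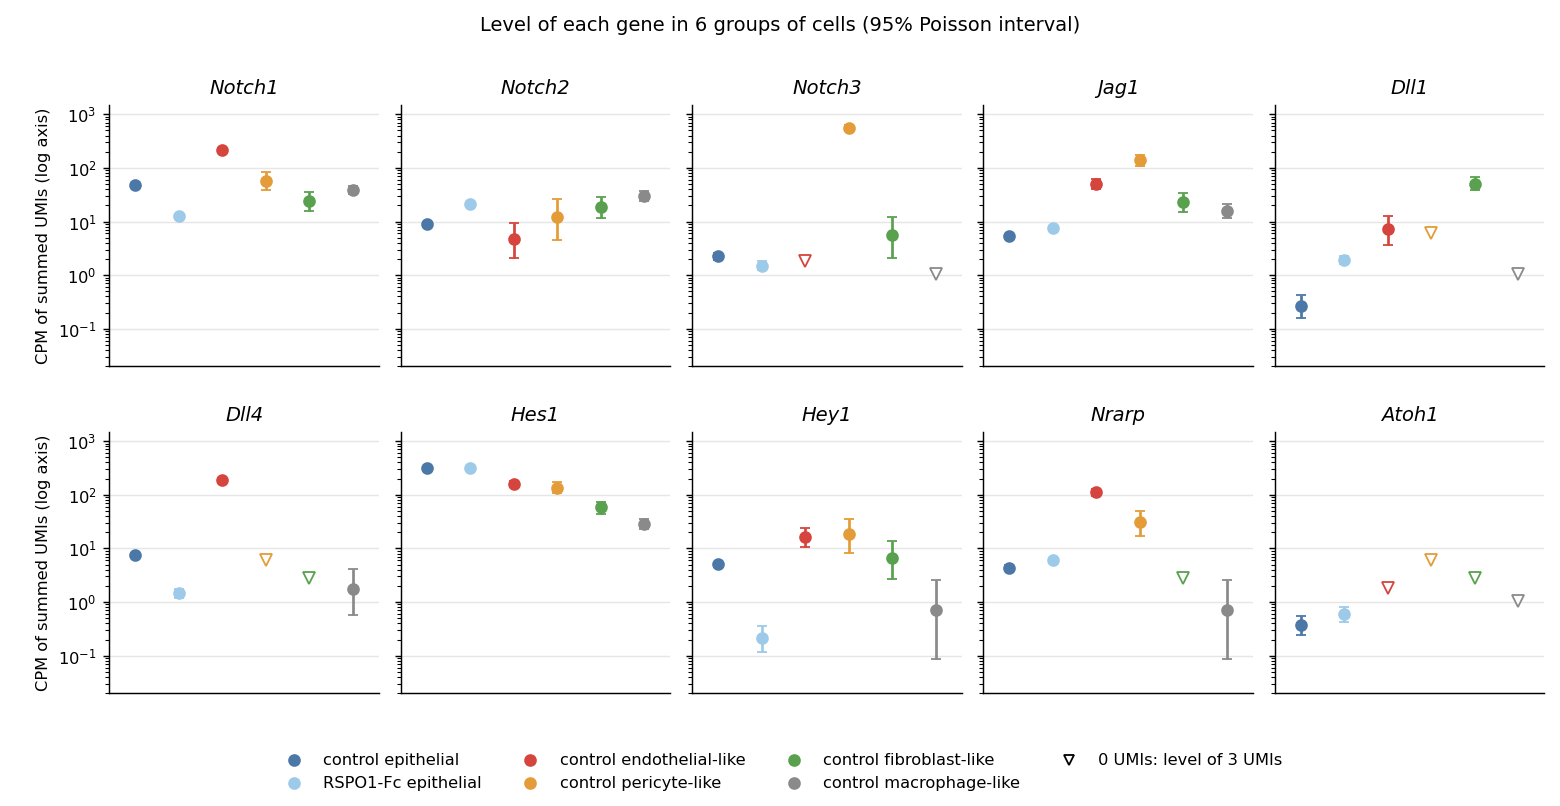
Level of each of the 10 genes in 6 groups of cells, as CPM of summed UMIs on a log axis, with 95% Poisson intervals; open triangles mark groups with 0 UMIs at the level that 3 UMIs would give. Notch1, Dll4 and Nrarp are highest in endothelial-like cells, Notch3 and Jag1 in pericyte-like cells, Dll1 in fibroblast-like cells and Hes1 in epithelium.

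Each ligand had its own highest class. Dll4 (chromosome 2, 119325784 to 119335962, plus strand) had 312 UMIs or 187 CPM (167 to 209) in endothelial-like cells and 0 UMIs in pericyte-like and fibroblast-like cells, where 3 UMIs would be 6.11 and 2.82 CPM. Control epithelium had 7.49 CPM (6.85 to 8.18), macrophage-like cells 1.77 (0.574 to 4.12) and RSPO1-Fc epithelium 1.45 (1.18 to 1.76), and the last 2 did not differ beyond their intervals. A Dll4 UMI was found in 86.1% of endothelial-like cells, in 18.2% of control epithelial cells and in 1.14% of the macrophage-like cells, at the median depths given above. With every cell thinned to 3000 UMIs these shares were 35.4%, 1.81% (1.25% to 2.52%) and 0 of 176 cells (up to 2.07%). With so few macrophage-like cells the thinned shares could not separate them from control epithelium. The summed levels of these groups, 1.77 CPM (0.574 to 4.12) and 7.49 CPM (6.85 to 8.18), did not overlap.

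Jag1 (chromosome 2, 137081456 to 137116644, minus strand) was highest in the cells of the vessel wall. Pericyte-like cells had 138 CPM (108 to 176), endothelial-like cells 49.9 (39.7 to 61.8), fibroblast-like cells 23.5 (15.2 to 34.7), macrophage-like cells 15.9 (11.6 to 21.3), RSPO1-Fc epithelium 7.65 (7.02 to 8.33) and control epithelium 5.34 (4.80 to 5.92). Only fibroblast-like and macrophage-like cells overlapped in this order. The fibroblast-like level rests on few cells: of its 25 UMIs, 13 were in 1 cell and 20 in the 19 of 69 cells that carry at least 3 markers of another class. Without that cell it was 11.5 CPM (5.95 to 20.1), and without the 19 cells 6.64 CPM (2.16 to 15.5). In 27 of the 30 pericyte-like cells with a Jag1 UMI there was also a Notch3 UMI, and in all 6 without Jag1.

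Dll1 (chromosome 17, 15367354 to 15376872, minus strand) was highest in fibroblast-like cells, with 54 UMIs or 50.7 CPM (38.1 to 66.2) and a UMI in 29 of 69 cells. Endothelial-like cells had 7.21 CPM (3.72 to 12.6), RSPO1-Fc epithelium 1.91 (1.60 to 2.26) and control epithelium 0.269 (0.159 to 0.425), all apart from each other. The endothelial-like level rests on 12 UMIs in 6 of 79 cells. Of these UMIs, 3 were in the 2 endothelial-like cells that carry at least 3 markers of another class. Pericyte-like and macrophage-like cells had 0 UMIs. In control epithelium Dll1 rested on 18 UMIs in 15 cells, of which 6 UMIs were in mixed cells.

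The target genes did not share a pattern. Nrarp (chromosome 2, 25180758 to 25183339, plus strand) was highest where Dll4 and Notch1 were, but its lower levels had another order: endothelial-like cells had 112 CPM (96.3 to 129), pericyte-like cells 30.5 (17.1 to 50.4), RSPO1-Fc epithelium 6.15 (5.58 to 6.75), control epithelium 4.40 (3.91 to 4.93) and macrophage-like cells 0.707 (0.0856 to 2.55), each apart from the next. Fibroblast-like cells had 0 UMIs, where 3 UMIs would be 2.82 CPM. Hes1 (chromosome 16, 30064384 to 30067796, plus strand) ran the other way. It had 315 CPM (311 to 319) in control and 312 CPM (307 to 316) in RSPO1-Fc epithelium, then 159 (141 to 180) in endothelial-like, 136 (106 to 173) in pericyte-like, 58.2 (44.6 to 74.6) in fibroblast-like and 28.6 (22.7 to 35.6) in macrophage-like cells. The epithelial pair and the vascular pair each overlapped, and the other steps did not.

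Hey1 (chromosome 3, 8663359 to 8667256, minus strand) was low everywhere. Pericyte-like cells had 18.3 CPM (8.38 to 34.8), endothelial-like cells 16.2 (10.7 to 23.6), fibroblast-like cells 6.57 (2.64 to 13.5), control epithelium 5.07 (4.54 to 5.64), macrophage-like cells 0.707 and RSPO1-Fc epithelium 0.213 (0.119 to 0.352). Only the step from control epithelium to macrophage-like cells was clear of the intervals. Atoh1 (chromosome 6, 64729125 to 64731245, plus strand) was found in epithelium only, at 0.374 CPM (0.242 to 0.552) in the control and 0.597 CPM (0.431 to 0.808) in RSPO1-Fc. The 4 other classes had 0 UMIs, where 3 UMIs would be 1.06 to 6.11 CPM, so a level like that of epithelium was not detectable in them.

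Set against control epithelium of the same library, 4 members were at least 2-fold higher in endothelial-like cells and 0 were at least 2-fold lower, among the 5 that reached 20 CPM in either group. Dll4 was 25.0-fold higher (95% interval 21.7 to 28.9), Nrarp 25.4-fold (21.0 to 30.7), Jag1 9.34-fold (7.27 to 11.9) and Notch1 4.60-fold (4.11 to 5.13). Hes1 stayed under 2-fold, at 1.98-fold lower (1.75 to 2.24). Of all 7596 genes at 20 CPM, 19.7% were higher and 19.6% lower by this rule. The median of the 5 members was 3.0 on the log2 scale with 1 CPM added, against -0.15 over those genes. A member that reached 20 CPM only through its high group had to differ, so these counts and the median describe the genes and carry no test. This limit holds for the counts and medians of the later comparisons too.

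In pericyte-like cells 5 members reached 20 CPM, 3 were higher and 1 lower. Notch3 was 248-fold higher than in epithelium (202 to 305), Jag1 25.9-fold (19.7 to 33.7) and Nrarp 6.95-fold (3.84 to 11.7), while Hes1 was 2.31-fold lower (1.82 to 2.98) and Notch1 differed by 1.22-fold (0.806 to 1.76). The background was 20.2% higher and 22.2% lower of 7815 genes. The median of the 5 members was 2.55 on that log2 scale, against -0.15 over those genes. Notch3, Jag1 and Nrarp reached 20 CPM only in pericyte-like cells, so the filter itself raises this median. The log2 ratio of Notch3, 7.42, was 7.82 without the mixed cells and 7.86 with free RNA subtracted.

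In fibroblast-like cells 4 members reached 20 CPM, 2 were higher and 1 lower. Dll1 was 188-fold higher (109 to 341) and Jag1 4.40-fold (2.81 to 6.60), while Hes1 was 5.41-fold lower (4.22 to 7.06). Notch1 was under the 2-fold limit, at 1.92-fold lower (1.31 to 2.95). Jag1 no longer reached 20 CPM without the 1 cell that held 13 of its UMIs (2.16-fold, 1.10 to 3.82) or without the 19 cells with other markers (1.25-fold, 0.402 to 2.93), which left 1 member higher. Without that 1 cell Notch1 passed the limit, at 2.13-fold lower (1.41 to 3.36). Dll1 was 193-fold and 237-fold higher in these settings. The background was 19.6% higher and 20.4% lower of 7750 genes. The median of the 4 members was 0.52, against -0.19 over those genes. Dll1 and Jag1 reached 20 CPM only in fibroblast-like cells, which raises this median likewise.

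Some members differed between endothelial-like and pericyte-like cells, and others did not. Notch1 was 3.78-fold higher in endothelial-like cells (2.57 to 5.77), Nrarp 3.66-fold (2.16 to 6.67) and Dll4 at least 30.7-fold, against a floor of 3 UMIs over the 36 pericyte-like cells. Jag1 was 2.78-fold lower in endothelial-like cells (1.98 to 3.87) and Notch3 at least 306-fold lower. Hes1 differed by 1.17-fold (0.890 to 1.55) and Hey1 by 1.13-fold (0.467 to 2.47), both inside their intervals.

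In single cells the leading members of the endothelial-like and pericyte-like classes were widespread. Dll1, by contrast, had a UMI in 29 of the 69 fibroblast-like cells, with a median of 0. Notch1 ranged from 0 to 7.33 UMIs per 10000 over the 79 endothelial-like cells with a median of 1.91, Dll4 from 0 to 6.24 with a median of 1.61, and Nrarp from 0 to 5.16 with a median of 0.933. Most cells of the class had each gene, with a UMI in 73, 68 and 61 cells, and the 4 cells with most Dll4 UMIs held 18.6% of them. Of the 73 cells with Notch1, 65 also had Dll4. In pericyte-like cells Notch3 ranged from 0 to 18.0 per 10000 with a median of 5.09, and Jag1 from 0 to 3.88 with a median of 0.871.

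**Figure D2:**
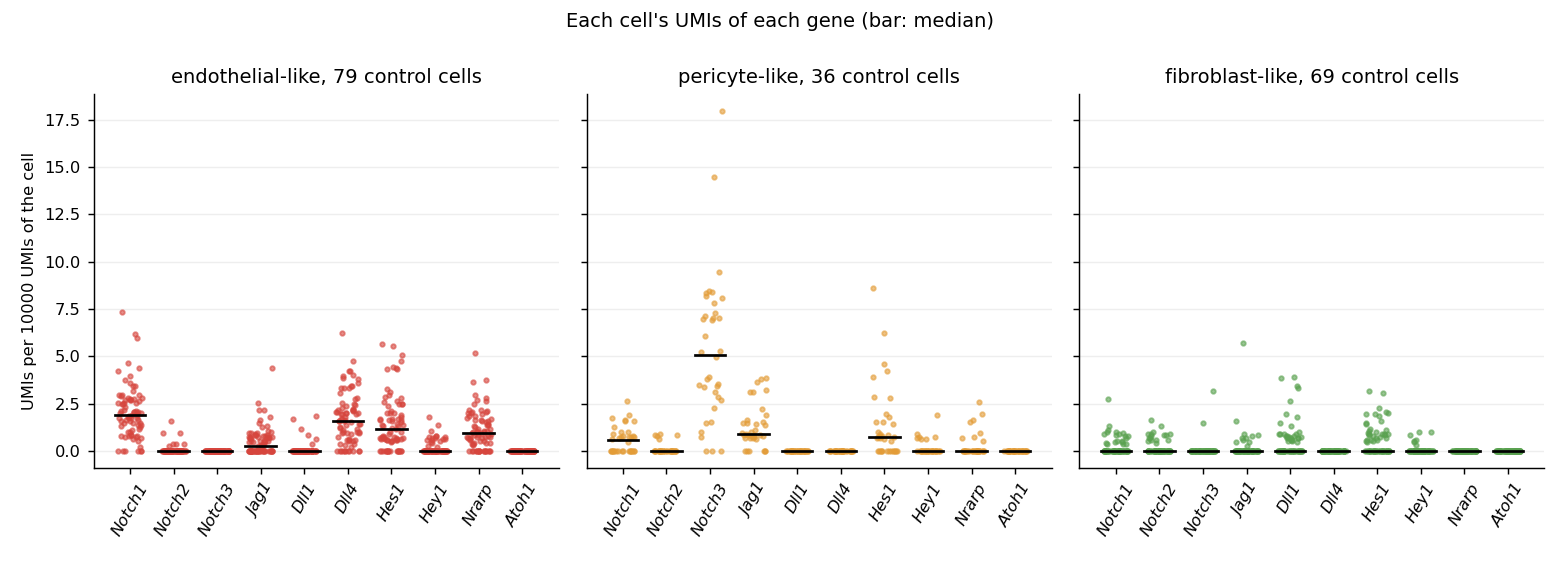
UMIs of each gene per 10000 UMIs of the cell, 1 point per control cell, with the median as a bar, in 79 endothelial-like, 36 pericyte-like and 69 fibroblast-like cells. Notch1, Jag1, Dll4, Hes1 and Nrarp have medians above 0 in endothelial-like cells, and Notch3 has the highest median in pericyte-like cells, 5.09; every median is 0 in fibroblast-like cells.

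Across the 79 endothelial-like cells Dll4 was most like Sparcl1 (Pearson's r of log values 0.66), Cdc42ep3 (0.63) and Pdgfb (0.58), a growth factor that recruits pericytes. Nrarp was most like Cyba (0.52), Exosc3 (0.49) and Apln (0.44), and Notch1 most like 2900026A02Rik (0.52), Lsm4 (0.47) and Dab2ip (0.44). Jag1 was most like Slc14a1 (0.48), Hey1 like Rtel1 (0.50) and Hes1 like Arhgap18 (0.45). Between members r was 0.32 for Dll4 with Notch1, 0.23 for Dll4 with Nrarp and 0.35 for Hey1 with Jag1, but -0.12 for Notch1 with Nrarp, -0.17 for Hey1 with Nrarp and -0.28 for Notch1 with Notch2. These cells share 1 library, and the best of many genes is named, so the values are descriptions.

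RNA of other cells in epithelial barcodes was measured beside the low epithelial levels. If all endothelial-marker UMIs in control epithelium came with endothelial RNA, they would bring at most 1.71 of the 7.49 CPM of Dll4 (22.8%), 1.02 of the 4.40 CPM of Nrarp (23.2%) and 1.97 of the 46.9 CPM of Notch1 (4.20%). By the same measure pericyte RNA could bring at most 62.0% of epithelial Notch3, and fibroblast RNA at most 83.3% of Dll1. Fibroblast markers summed to 95.1 CPM in control epithelium, of which Fbln1 gave 36.9. They summed to 39.6 CPM in RSPO1-Fc epithelium, of which Fbln1 gave 38.6, although that library had 0 fibroblast-like cells. With the RNA profile of low barcodes subtracted at 12.8% of control epithelium, Dll4 was 6.42 CPM, Nrarp 3.64, Notch3 1.37 and Dll1 0.0726. The 12.8% was set from macrophage-marker UMIs in all control epithelial cells, 36 of which carried at least 3 macrophage markers. It was 4.47% to 6.55% in the endothelial-like, pericyte-like and fibroblast-like cells. Without the mixed cells the shares that other cells' RNA could bring were at most 17.5% for Dll4, 17.7% for Nrarp, 51.0% for Notch3 and 54.3% for Dll1. The last rests on 43.0 CPM of fibroblast markers. Whether RNA of other cells gave these levels was not tested.

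Between the libraries 3 members reached 20 CPM in epithelium, 1 higher with RSPO1-Fc and 1 lower, where 7.23% of 6911 genes were higher and 18.7% lower. Notch1 was 3.74-fold lower with RSPO1-Fc, 12.5 against 46.9 CPM (95% interval 3.47 to 4.04). Notch2 was 2.34-fold higher, 21.2 against 9.03 CPM (2.13 to 2.58). Hes1 did not differ beyond its interval, at 312 against 315 CPM (1.01-fold lower, 0.992 to 1.03), and lay 0.32 (TMM) and 0.31 (DESeq2 size factors) higher with RSPO1-Fc on the log2 scale under other scalings, which shift all genes by 0.34 and 0.33 upwards. These scalings also change the background: 27.9% of called genes were higher and 72.1% lower on CPM, 56.3% and 43.7% under TMM, and 55.5% and 44.5% under DESeq2 size factors.

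The other members stayed under 20 CPM in both libraries and are given as values. Dll4 had 501 UMIs in the control and 102 with RSPO1-Fc, 5.16-fold lower (4.16 to 6.45), in 18.2% and 3.42% of cells. Hey1 had 339 and 15 UMIs, 23.8-fold lower (14.2 to 42.9), the largest ratio of the 10 genes. Dll1 went the other way with 18 and 134 UMIs, 7.08-fold higher (4.31 to 12.3) and 10.2-fold without the mixed cells (5.66 to 20.3). Jag1 was 1.43-fold higher (1.25 to 1.64), Nrarp 1.40-fold (1.20 to 1.63) and Atoh1 1.60-fold (0.951 to 2.74), the last inside its interval. Notch3 was 1.49-fold lower with all cells (1.15 to 1.93) but 1.03-fold higher without the mixed cells (0.774 to 1.38).

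With every cell thinned to 3000 UMIs, the share with a Notch1 UMI was 12.4% in the control (10.9% to 14.0%) and 3.67% with RSPO1-Fc (3.0% to 4.44%). For Notch2 it was 3.14% (2.40% to 4.03%) and 6.29% (5.41% to 7.26%), so the order of the libraries was that of the sums for both genes. The share with a UMI in thinned macrophage-like cells was 13.1% for Notch1 and 7.95% for Notch2, and these cells hold both genes at 38.9 and 30.4 CPM. RSPO1-Fc, the library, Xist and the gut region genes all differ together here and cannot be told apart.

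**Figure D3:**
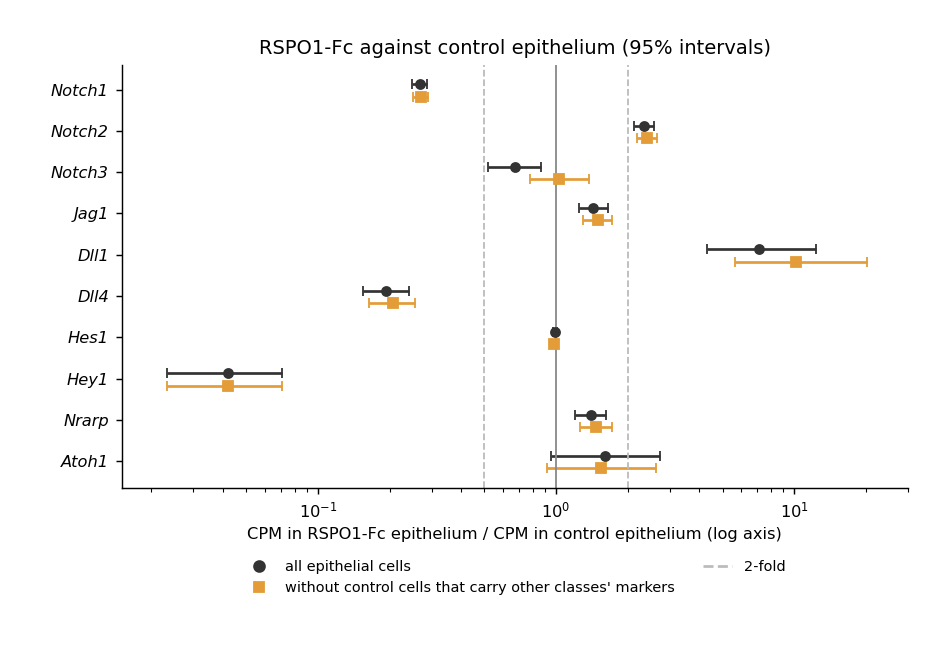
Ratio of CPM in RSPO1-Fc epithelium to CPM in control epithelium on a log axis, with 95% intervals, for all epithelial cells (circles) and without the 59 control cells that carry markers of other classes (squares). Notch1, Dll4 and Hey1 lie left of the 2-fold line, Notch2 and Dll1 right of it, Hes1 at 1 on this scale (above 1 under TMM and DESeq2 scaling), and Notch3 moves from below 1 to 1.03.

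The other Notch pathway genes (receptors, ligands, modifiers, proteases, co-factors and targets) were read from a list of 49, of which 21 reached 20 CPM in epithelium. With RSPO1-Fc 0 were higher and 6 lower, against the 7.23% and 18.7% of all genes, and 4 of the 49 were lower under TMM or DESeq2 scaling. The co-activator Maml3 was 3.83-fold lower (3.55 to 4.13), the Rbpj co-repressor Spen 3.13-fold (2.96 to 3.32), the histone acetylase Ep300 2.86-fold (2.69 to 3.04), Hes6 2.69-fold (2.63 to 2.75) and the ubiquitin ligase Dtx3l 2.38-fold (2.20 to 2.58). Adam10, the protease that cuts the receptors, was the last of the 6, at 2.14-fold (2.07 to 2.22). The median of the 21 was -0.61 on the log2 scale with 1 CPM added, against -0.18 over all genes tested.

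In endothelial-like cells 8 of 31 list genes were higher than in epithelium and 1 lower, where 19.7% of all genes were higher and 19.6% lower. Mfng, a sugar transferase that modifies the receptors, was 169-fold higher (125 to 233), the endothelial receptor Notch4 55.0-fold (44.6 to 68.0), the ligand Jag2 5.81-fold (4.55 to 7.34) and Maml2 4.20-fold (3.11 to 5.56). Hes6 was 19.2-fold lower (13.7 to 27.9). Notch4 had 129 CPM there and 2.35 CPM in control epithelium.

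In pericyte-like cells 10 of 32 list genes were higher and 3 lower, where 20.2% of all genes were higher and 22.2% lower. Hey2 was 511-fold higher (163 to 2114), its relative Heyl 495-fold (306 to 834), the ligand-like Dlk1 232-fold (100.1 to 566), Numbl, a relative of the inhibitor Numb, 24.4-fold (14.7 to 38.6) and the ligand-trafficking ligase Neurl1b 13.7-fold (6.66 to 25.6). Hes6 was 14.4-fold lower (8.40 to 27.0), Dtx3l 2.39-fold (1.09 to 6.51) and Maml3 2.13-fold (1.19 to 4.27). Hey2 and Heyl had 0 UMIs in endothelial-like cells, which puts them at least 16.9-fold and 90.4-fold below pericyte-like cells.

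In fibroblast-like cells 5 of 29 list genes were higher and 3 lower, where 19.6% of all genes were higher and 20.4% lower, so the share of list genes higher was not above that of all genes. Numbl was 18.4-fold higher (12.3 to 26.8), Pofut2 3.01-fold (2.45 to 3.66), Maml1 2.58-fold (1.70 to 3.77), Dtx3 2.31-fold (1.68 to 3.11) and Sel1l 2.10-fold (1.68 to 2.60). Hes6 was 17.6-fold lower (11.7 to 27.8), Adam10 2.98-fold (2.28 to 3.97) and Fbxw7, which marks the Notch intracellular domain for decay, 2.04-fold (1.23 to 3.66). Hes6 was lower in all 3 classes than in control epithelium, where it had 380.2 CPM. The list medians were 0.44, 0.58 and 0.30 in the 3 classes, against -0.15, -0.15 and -0.19 over all genes tested. List genes that reached 20 CPM only in their high class raise these medians, which carry no test.

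Among control epithelial cells some members differed between cells that carry a differentiation marker and the rest. The 14 cells with at least 5 UMIs of the goblet mucin Muc2 had 27.5 CPM of Atoh1 against 0.0605 CPM in the other epithelial cells (454-fold, 153 to 1821), with a UMI in 9 cells. These 14 cells also had 23.6 CPM of Dll4 against 7.30 (3.23-fold, 1.90 to 5.15), but less Hes1, 141 against 317 CPM (2.24-fold lower, 1.86 to 2.73), and less Notch1, 19.6 against 47.2 CPM (2.41-fold lower, 1.46 to 4.30). Hey1 had 0 UMIs in them, and Jag1 (0.981-fold, 0.266 to 2.53), Nrarp and Notch2 lay inside their intervals. In the 32 control cells with at least 2 UMIs of Krt20, a keratin of mature epithelium, Hes1 had 171 against 318 CPM (1.86-fold lower, 1.65 to 2.11). Notch1 had 24.0 against 47.5 CPM there (1.98-fold lower, 1.43 to 2.81). In the 786 such cells of RSPO1-Fc Hes1 was 1.02-fold higher (0.995 to 1.05), inside its interval, and Notch1 1.30-fold lower (1.12 to 1.52). The 14 Muc2 cells held no mixed cell, and cells gated on a UMI count are deeper than the rest (median 49925 UMIs).

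The 32 cells with at least 2 UMIs of Dclk1, a tuft cell marker, had 25.2 CPM of Dll4 against 7.08 (3.56-fold, 2.48 to 4.95) and 5.96 CPM of Dll1 against 0.138 (43.3-fold, 15.2 to 123). Without the mixed cells 29 of the 32 remained, Dll4 was 3.75-fold higher (2.56 to 5.32) and Dll1 23.1-fold (5.09 to 86.3), on 4 UMIs. Notch3 was 10.9-fold higher with the mixed cells (7.06 to 16.4) and 2.63-fold without them (0.832 to 6.36), inside its interval. Across control epithelial cells, 15 of them with a Dll1 UMI, Dll1 was most like Tspo2 (r 0.42), Trpm5 (0.40) and Sh2d6 (0.34). Trpm5 is a tuft cell channel, and these 3 genes stayed the most similar without the mixed cells. The highest r of Dll1 in RSPO1-Fc epithelium, with a UMI in 121 cells, was 0.19 (Gng13).

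Nrarp was higher in cells with a proliferation marker, with a larger ratio in the control than in RSPO1-Fc. The 394 control cells with at least 2 UMIs of Mki67, a proliferation marker, had 9.10 CPM of Nrarp against 2.11 (4.31-fold, 3.36 to 5.57), and in RSPO1-Fc 1126 such cells had 7.29 against 4.88 CPM (1.49-fold, 1.22 to 1.82). Hes1 was lower in the same cells, 234 against 354 CPM in the control (1.51-fold, 1.46 to 1.56) and 262 against 367 CPM in RSPO1-Fc (1.40-fold, 1.36 to 1.44). The most similar genes of Nrarp in the control were Uhrf1 (r 0.29), Pclaf (0.28) and Rad51ap1 (0.27), all of DNA replication or repair.

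**Figure D4:**
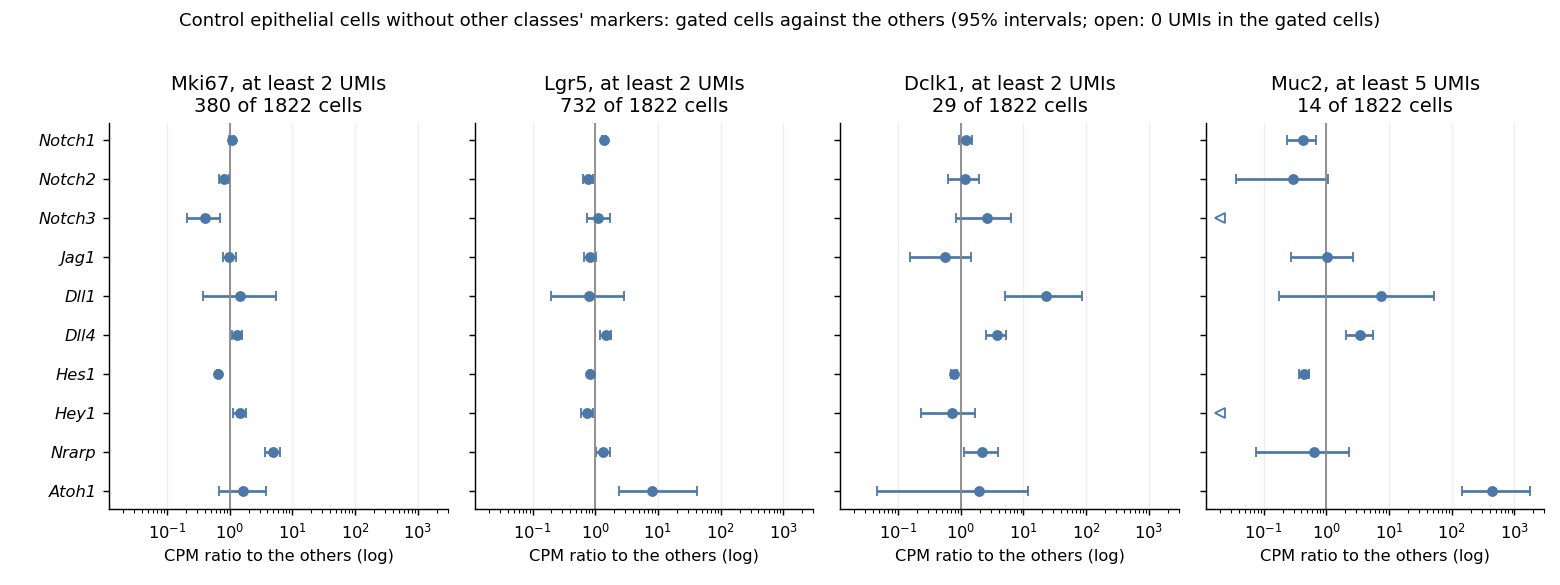
Ratio of CPM in gated control epithelial cells to CPM in the other control epithelial cells on a log axis, with 95% intervals, all without mixed cells; open triangles mark 0 UMIs in the gated cells. Nrarp is higher in Mki67 cells, Dll1 and Dll4 in Dclk1 cells, and Atoh1 and Dll4 in Muc2 cells, where Notch1 and Hes1 are lower.

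Cells with at least 2 UMIs of Lgr5, a stem cell marker, were 754 in the control, and their differences were under 2-fold for these members: Notch1 was 1.37-fold higher (1.27 to 1.47), Dll4 1.56-fold (1.30 to 1.87) and Nrarp 1.34-fold (1.06 to 1.70), while Hes1 was 1.19-fold lower (1.16 to 1.22). Notch2 (1.29-fold, 1.09 to 1.52) and Hey1 (1.33-fold, 1.07 to 1.67) were also lower in these control cells. The 177 such cells of RSPO1-Fc had 1.38-fold more Notch1 (1.10 to 1.72), 1.61-fold more Nrarp (1.17 to 2.17) and 1.13-fold less Hes1 (1.07 to 1.19). In them Dll1 was 2.03-fold higher (1.18 to 3.32), on 19 UMIs, and Dll4 was 1.10-fold lower (0.515 to 2.82), inside its interval. The difference between libraries in these ratios was not tested. Atoh1 was 8.12-fold higher in the control cells (2.44 to 42.4), on 22 of its 25 UMIs. The 14 Muc2 cells held 21 of these 25 UMIs, so the Lgr5 and Muc2 sets share most of this Atoh1.

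Across control epithelial cells, 13 of them with an Atoh1 UMI, Atoh1 was most like Clps (r 0.71), Ang4 (0.70) and Spink4 (0.63). Ang4 and Spink4 are products of secretory cells. The highest r of Atoh1 in RSPO1-Fc epithelium, with a UMI in 37 cells, was 0.19 (AY761184). Of the 13 control cells with an Atoh1 UMI, 9 had a Dll4 UMI (69.2%), against 333 of the other 1868 cells (17.8%). In RSPO1-Fc this was 3 of 37 (8.11%) against 91 of 2714 (3.35%). Depth was not matched in these shares. The Muc2 cells included 9 of the 13 control cells with Atoh1, and their median was 49925 UMIs, against 27696 in all control epithelial cells. Cells with at least 5 UMIs of the Paneth product Lyz1 had 81.2-fold more Atoh1 in the control (31.2 to 248, 63 cells) and 4.80-fold more in RSPO1-Fc (2.02 to 10.2, 129 cells), at 7.57 and 2.38 CPM. The control Lyz1 cells held 19 of the 25 control Atoh1 UMIs, largely those of the Muc2 cells. Without the mixed cells 48 of the 63 control Lyz1 cells remained, and Atoh1 was 104-fold higher in them (39.9 to 318). The 21 RSPO1-Fc cells with at least 2 UMIs of Chga, an enteroendocrine product, had less Hes1, 138 against 312 CPM (2.26-fold, 1.71 to 3.05), and 0 UMIs of Atoh1, where 3 UMIs would be 8.47 CPM against 0.60 CPM in the other cells, so a difference in Atoh1 was not detectable.

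Hes1 was most like Atf3 (r 0.40), Cldn4 (0.39) and Junb (0.38) in control epithelium, and Atf3 and Junb are immediate early genes that also respond to cell dissociation, whose part was not tested. In RSPO1-Fc it was most like S100a6 (0.27), Tmcc3 (0.27) and Fn1 (0.26). Notch2 was most like Actb (0.42), Slc39a1 (0.35) and Abhd2 (0.29) in RSPO1-Fc. Notch3 was most like Cspg4 (0.54), Thy1 (0.50) and Col5a3 (0.50) in control epithelium, and Dll4 like Sparcl1 (0.24), Adgrl4 (0.24) and Apln (0.22), which are genes of pericytes or stroma and of endothelium. Without the mixed cells none of these 6 was among the 3 most similar genes. Dll4 was then most like Hepacam2 (0.23), and Notch3 most like Sprr2b (0.25), B230398E01Rik (0.21) and Mcam (0.21), the last a gene of pericytes and endothelium. Hey1 in RSPO1-Fc, with a UMI in 15 cells, was most like Kctd12 (0.30), Atp2a3 (0.25) and Ero1lb (0.24), and Notch1 and Jag1 had no gene at 0.20 or above in epithelium.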

How the data were processed

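The authors deposited raw UMI counts per gene and barcode, 1 matrix per library, not normalized and not filtered for cells. Per the labels' protocols these are 10x Chromium 3′ libraries with v2 reagents, aligned to mm10, with 58414 and 131291 mean reads per cell. Cell Ranger 2.1.1 and Seurat 3.1.1 are listed per the submitters' processing notes, while the control matrix names 3.1.0 per the file headers and has the longer barcode list of v3 reagents, so chemistry and RSPO1-Fc cannot be told apart. Total depth was 91675581 UMIs (control) and 89437327 UMIs (RSPO1-Fc).

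The tables were joined on 27514 Ensembl identifiers, 1027 of which carry different symbols. To set the UMI limit of a library, its 5000 deepest barcodes were taken and the 99th percentile of their UMIs was multiplied by 0.1. UMIs were summed per class (Python 3.11.15, numpy 2.4.6) and scaled to CPM. Levels carry exact 95% Poisson intervals, shares carry Clopper-Pearson intervals and ratios the conditional form of the latter, all for counting error only. A fold against 0 UMIs is set against 3 UMIs over the group. Calls needed 20 CPM or more in 1 of the groups and a 2-fold ratio. No test was possible with 1 library per group, since cells are not replicates. Doublets were kept in the main values; Scrublet (in scanpy 1.11.5) took out 41 control and 61 RSPO1-Fc cells in an alternative. Other alternatives were TMM (edgeR 4.0.16) and DESeq2 1.42.0 size factors on the deposited counts, other filters, thinning, free RNA subtraction, and other gates. The call rule was tested on simulated sums with counting error only, in which the changed genes lay above 20 CPM. That simulation does not cover spread between cells or libraries, or genes at low levels. The members, lists and gates were chosen with earlier results of these data known. Named list genes are up to 5 higher and 5 lower per comparison by ratio, and Adam10 was named beside them after its values were seen. Similar genes are the top 3 with r of at least 0.20 in epithelium (0.40 in endothelial-like cells). Among marker lists not used for classes, T or NK cell, mesothelial and glial genes summed to 0.628, 0.105 and 3.29 CPM in control epithelium, and lymphatic endothelial genes to 543 CPM, nearly all Prox1.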

Additional observations from a re-analysis of the deposited data

How the results depend on the processing

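Over 40 results of a single gene in a comparison and 14 other settings, 438 of 460 alternative values stayed inside the counting interval, 4 changed direction (Notch3 without mixed cells and Hes1 under TMM and DESeq2 scaling between the libraries, and Notch1 in pericyte-like cells when thinned, -0.08 on the log2 scale), and none of the 154 for the 13 results called different (8 members) did. Of 108 alternative counts of members or list genes, 23 moved by over 1.5 times. Without a filter on low genes the RSPO1-Fc comparison had 2 members higher and 3 lower (main 1 and 1) and 1 list gene higher and 14 lower (0 and 6); at 5 CPM it had 3 members lower and 1 list gene higher. DESeq2 size factors shifted all genes of the endothelial-like comparison by 0.10 on the log2 scale. In endothelial-like cells 0 members lower became 2 with no filter, and 1 with doublets removed, with free RNA subtracted or with 0 Epcam UMIs, where Hes1 passed 2-fold. In pericyte-like cells 1 lower became 2 at 5 CPM and 4 with no filter. In fibroblast-like cells 2 higher became 4 at 5 CPM and with no filter, and 1 lower became 2 at 5 CPM, 4 with no filter, and 2 with thinning, free RNA subtracted, 0 Epcam UMIs or Leiden clusters. Without the 19 fibroblast-like cells that carry other classes' markers 1 member was higher, and without the cell with most Jag1 1 was higher and 2 were lower. A looser filter tests more genes; for the others the cause was not tested. Free RNA was not subtracted between the libraries, since RSPO1-Fc has no macrophage class. Leaving these cells out, and mixed cells out of the gated sets, was chosen after seeing the data. No paired analysis was possible because each group has 1 library.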

Other observations

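Of the 2269 control cells, 6 carried equal numbers of markers of different classes and 22 with under 5 Epcam UMIs carried too few of any; the latter summed to 383 CPM of T or NK cell markers. In RSPO1-Fc 16 cells had too few Epcam UMIs for epithelium and no class, and summed to 7231 CPM of epithelial markers. None of these cells entered a main comparison, but some of the control cells among them entered the setting with classes from Leiden clusters. Removing the cells with the highest doublet scores took 25 of the 59 mixed control epithelial cells.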
